A study of Mus musculus with 12 samples.

Results

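The comparison described here was between CD8+ T cells that carried or lacked the A2AR reporter signal in untreated tumors, and it covered 6 of the 12 libraries of the series. The members were taken from the labels alone: the 3 non-treated GFP+ libraries KT13, KT15 and KT17 and the 3 non-treated GFP- libraries KT14, KT16 and KT18. All mice were A2AR eGFP reporter mice on a C57BL/6 background, in which a bacterial artificial chromosome carries EGFP at the start codon of Adora2a, so GFP reported the activity of the gene's regulatory sequences on the transgene and not A2AR protein. Female mice received 500000 AT3ova cells, a mouse mammary carcinoma line that expresses ovalbumin, under the skin, and tumor-infiltrating CD8+ T cells were sorted by GFP at day 21 with 3 mice pooled per library. Both groups came from the same strain, carried the same transgene and the same tumor, and received no antibody. The sort gate was the only difference between them that the labels gave. The 6 other libraries were the same GFP+ and GFP- populations from mice given anti-PD-L1 at days 14 and 18, and they entered here to estimate the spread between libraries and as a separate set in which to look at the same genes. The labels did not say which GFP+ and GFP- libraries came from the same mice, so p-values measure the spread between these pools only.

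A2AR is a receptor for extracellular adenosine that couples to the stimulatory G protein Gs and raises cyclic AMP, a signal that dampens T cell receptor signaling and cytotoxic function. Adenosine accumulates in tumors where the ectoenzymes CD39 and CD73 degrade extracellular ATP, and T cells increase A2AR after activation. CD8+ T cells in tumors range from stem-like and memory cells to effector and exhausted cells, and some acquire receptors better known from natural killer (NK) cells, among them the Ly49 lectins that bind MHC class I.

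Between 11292699 and 19023900 reads were counted on genes per library across the 6 libraries. The GFP+ libraries had the lower totals, with 11292699, 15659705 and 15538680 counts against 18011431, 19023900 and 16440398 in GFP-. KT13 stood apart, with a median Spearman correlation of 0.933 with the other libraries over 12424 genes. KT21, an anti-PD-L1 GFP+ library, had 0.923 and all others 0.966 to 0.977. In KT13, 2617 of 14173 genes lay more than 1 on the log2 scale from the mean of the other libraries of its group, against 909 to 1710 in the 5 other non-treated libraries. Results are therefore given from a fit of all 12 libraries and from a fit of the 10 libraries without KT13 and KT21. Expression is given as CPM, counts scaled to the TMM-normalized library size, and values per library are always in the order KT13, KT15 and KT17 for GFP+ and KT14, KT16 and KT18 for GFP-. Reads of this 3′ end assay sit at transcript ends, so CPM were compared between libraries and not between genes. Each log2 fold change is GFP+ minus GFP- with its standard error (SE), and genes were called at a Benjamini-Hochberg adjusted p under 0.05 in edgeR's quasi-likelihood test.

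With all 12 libraries in the fit, 1 of 14173 genes was higher in GFP+ (0.00706%), Adora2a, and none was lower (0%), while 857 genes had an unadjusted p under 0.05. Without KT13 and KT21, 17 of 14747 genes were higher (0.115%) and 33 were lower (0.224%), with 1362 genes at an unadjusted p under 0.05. The higher genes encoded the sorted receptor (Adora2a), NK receptors (Klra6, Klra7, Klrb1c), a signaling adaptor (Fcer1g), molecules of adhesion and homing (Itga4, Cxcr4), the transcription factor Helios (Ikzf2), Cd7, Gas7, Pdgfb, Pabpc4, Chn2, Nsg2 and Nrgn, and the non-coding RNAs Snhg6 and Gm12504. The lower genes, of which 32 are named here, encoded another adenosine receptor (Adora3), members of the Ly6 and IFITM families (Ly6a, Ly6g5b, Ifitm1, Ifitm2) and an interferon-induced GTPase (Gbp6), granzymes (Gzma, Gzmc), the CD8 coreceptor and an adaptor of the T cell receptor (Cd8a, Cd8b1, Lat), adhesion G protein-coupled receptors (Adgrg1, Adgrg3), other receptors and surface or secreted molecules (P2ry14, F2r, Il10ra, Cd86, Sema4a, Fgl2), a lamin and galectins (Lmna, Lgals1, Lgals3), the regulator Id2, and AA467197, Ppp2r2c, Emp3, Glrx, Rexo5, B4galnt4, Med10, Osgin1 and the predicted gene 5830411N06Rik.

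In 40 of the 50 called genes all 3 GFP+ libraries lay on 1 side of all 3 GFP- libraries, 14 of 17 higher and 26 of 33 lower genes. Over all genes tested with the 12 libraries, such a separation was found upward in 877 (6.19%) and downward in 940 (6.63%), and the 50 genes were called partly on these same libraries. Counts of called list members below are to be read against the 0.115% of all genes called higher and the 0.224% called lower. The lists were chosen with earlier results of these data known, and several hold called genes. Their counts of called or separated members therefore describe the lists and do not test them. The 10 called genes that overlapped once KT13 was included had among them Pdgfb, Gm12504 and Snhg6 of the higher and Adgrg1, Lgals1, Emp3, Rexo5, Il10ra and Osgin1 of the lower. With all 12 libraries the adjusted p of the 49 called genes other than Adora2a ran from 0.122 for Ly6a to 0.904 for Snhg6. Leaving out KT13 alone called 3 genes, Adora2a, Klra6 and Adora3, and leaving out KT21 alone called 6, Adora2a, Ly6a, Ikzf2, AA467197, Ifitm2 and Klra7, so most calls rested on the removal of both libraries.

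**Figure D1:**
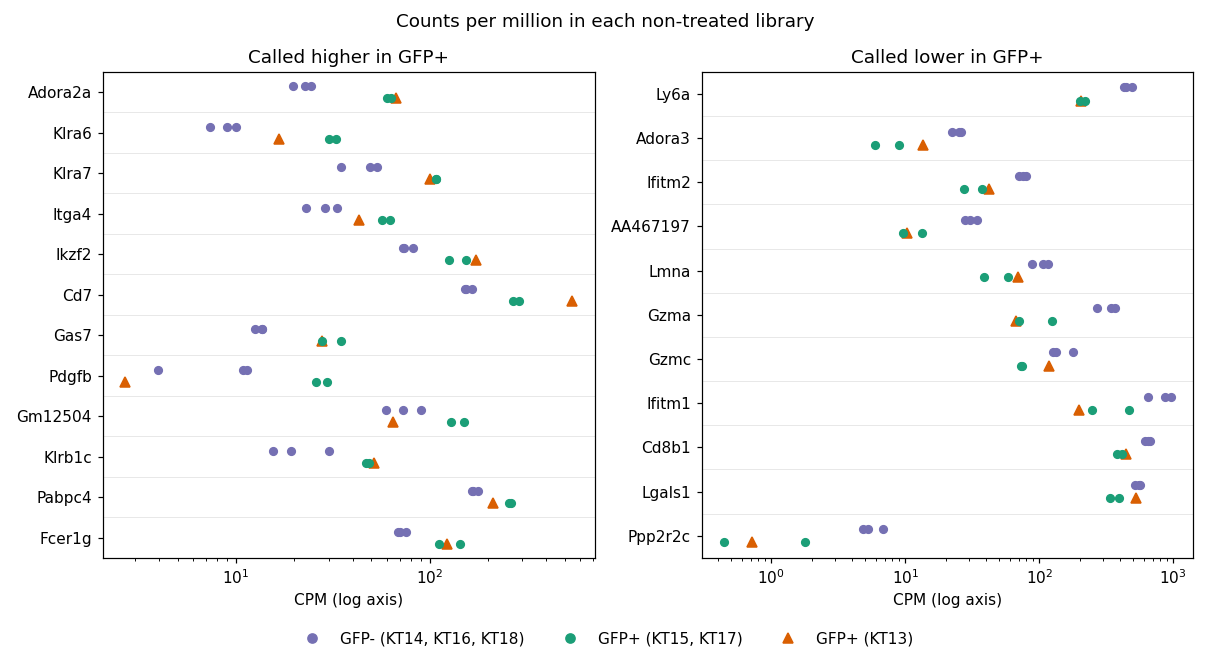
CPM on a log axis for the 12 higher (left) and 11 lower (right) called genes among those with the smallest adjusted p without KT13 and KT21, with 1 point per non-treated library, circles for GFP- and for KT15 and KT17, and a triangle for KT13. Adora2a, Ly6a, Klra7 and Ikzf2 keep the groups apart with KT13 included, whereas the KT13 triangle of Pdgfb falls below the GFP- points and those of Gm12504 and Lgals1 fall among them.

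The adenosine receptor genes Adora2a and Adora3 moved in opposite directions. Adora2a (chr10:75316877-75334784 of mm10) encodes the receptor that the reporter follows, so its difference checks the sort. It measured 67.3, 63.0 and 60.2 CPM in GFP+ and 19.7, 24.3 and 22.6 CPM in GFP-, every GFP+ value above every GFP- value, and the log2 fold change was 1.51 ± 0.19 with all libraries (adjusted p = 0.027) and 1.47 ± 0.17 without KT13 and KT21 (adjusted p = 0.000151). Adora2a transcript was thus also counted in all GFP- libraries, at 22.2 ± 2.31 CPM (SD, n = 3) against 63.5 ± 3.59 CPM (n = 3). The genes that flank it on chromosome 10, Bcr, Specc1l, Gucd1 and Upb1, chosen for position, overlapped between the groups, with log2 fold changes of 0.08, -0.28, -0.34 and 0.82 over all 12 libraries.

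Adora3 (chr3:105870858-105908926) encodes the A3 receptor, which couples to inhibitory G proteins and lowers cyclic AMP. It measured 13.4, 8.99 and 5.98 CPM (GFP+) against 25.9, 25.0 and 22.3 CPM (GFP-). All GFP- libraries were higher, and the 3 GFP+ libraries differed among themselves, KT13 having the value nearest to GFP-. The log2 fold change was -1.37 ± 0.26 with all libraries (adjusted p = 0.157) and -1.70 ± 0.23 without KT13 and KT21 (adjusted p = 0.000673). The annotated gene also holds a longer transcript that starts upstream and shares the last exon, and 3′ counts do not tell the transcripts apart. Adora1 was listed at 0 in all 6 libraries, and Adora2b stayed between 0 and 1.69 CPM. Of the 13 tested genes of adenosine sensing and metabolism, the receptors Adora2a and Adora3 were called. In this list 2 members separated upward and 2 downward (15.4% each), against 6.19% and 6.63% of all genes tested. Entpd1, which encodes CD39, measured 21.6, 19.3 and 18.3 CPM in GFP+ against 29.4, 25.1 and 27.6 CPM in GFP- libraries, and its groups did not overlap, but its adjusted p was 0.261 without KT13 and KT21. Nt5e, which encodes CD73, measured 50.02, 46.3 and 48.9 CPM in GFP+ and 49.8, 55.9 and 53.9 CPM in GFP-, and its groups overlapped. Adk, the kinase that returns adenosine to AMP, lay higher in all GFP+ libraries at 10.8, 10.5 and 12.6 CPM (GFP+) against 5.39, 7.66 and 9.80 CPM (GFP-) without passing the test (adjusted p = 0.548).

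NK receptors were the largest group among the higher genes. The Ly49 receptors are lectins that bind MHC class I molecules, most of them inhibitory, and their genes lie side by side in the Ly49 cluster of chromosome 6, chr6:129898996-131247362 of mm10. Klra6 (chr6:130013033-130026954), which encodes Ly49F, measured 16.7, 30.1 and 32.7 CPM in GFP+ against 7.38, 8.98 and 10.04 CPM in GFP- libraries. Its log2 fold change was 1.59 ± 0.30 with all libraries (adjusted p = 0.157) and 1.84 ± 0.24 without KT13 and KT21 (adjusted p = 0.000493). Every GFP+ library was above every GFP- library, and KT13 was the lowest of the GFP+ libraries. Klra7 (chr6:130218605-130233322), which encodes Ly49G, was at 99.96, 108 and 108 CPM in GFP+ and 34.9, 53.4 and 49.4 CPM in GFP-, with log2 fold changes of 1.20 ± 0.21 (adjusted p = 0.141) and 1.23 ± 0.18 (adjusted p = 0.0015), respectively. The 3 GFP+ values of Klra7 lay close together, whereas GFP- libraries ranged from 34.9 to 53.4 CPM.

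The rest of the cluster was read for its position. Of the 11 tested genes in this stretch, 2 of them pseudogenes, 6 lay higher in all GFP+ libraries and 0 lay lower. The 6 were Klra6, Klra4, Klra9, Klra7, Klra3 and Klra1, and the shares over all genes tested were 6.19% and 6.63%. The cluster was read because Klra6 and Klra7 were called, and both are among the 6, so the count does not test the cluster. Klra4 was near the floor at 1.69, 0.823 and 0.930 CPM (GFP+) against 0, 0.609 and 0.245 CPM (GFP-). Klra3 (Ly49C) measured 36.7, 25.7 and 29.2 CPM (GFP+) against 11.7, 16.4 and 13.2 CPM (GFP-), with a log2 fold change of 0.99 ± 0.23 and an adjusted p of 0.0693 without KT13 and KT21. Klra1 (Ly49A) measured 63.2, 46.8 and 39.8 CPM in GFP+ against 27.2, 32.1 and 22.4 CPM in GFP- libraries (adjusted p = 0.226). These Klra genes therefore separated the groups without passing the threshold. Klra9 (Ly49I) was at 18.5, 21.6 and 21.3 CPM in GFP+ and 14.4, 13.95 and 6.31 CPM in GFP-, while Klra5 was at 1.16, 4.05 and 4.72 CPM (GFP+) against 5.56, 4.77 and 4.47 CPM (GFP-) and overlapped. Related genes can share reads: of the 75-base stretches in the last 600 bases of each transcript, Klra6 shared none with another gene, Klra7 shared 8.81%, Klra3 10.1% and Klra9 20.6%, so the values of Klra3 and Klra9 are less certain than that of Klra6.

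The RefSeq sequences before the starts of Klra6, Klra7 and Klra3 are shown because these neighbouring genes were the Ly49 members with the smallest p. Each line gives the 250 bases upstream on the minus strand of GRCm38.p6, 5′ to 3′, at chr6:130026955-130027204, chr6:130233323-130233572 and chr6:130337627-130337876, and capitals mark the longest run that Klra6 and Klra7 share, 30 bases, of which Klra3 holds 18 at its end.
Klra6: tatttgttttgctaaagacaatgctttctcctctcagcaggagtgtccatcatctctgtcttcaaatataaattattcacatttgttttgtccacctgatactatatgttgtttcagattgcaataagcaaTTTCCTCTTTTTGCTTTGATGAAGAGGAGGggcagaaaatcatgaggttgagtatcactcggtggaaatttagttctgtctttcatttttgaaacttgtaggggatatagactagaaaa
Klra7: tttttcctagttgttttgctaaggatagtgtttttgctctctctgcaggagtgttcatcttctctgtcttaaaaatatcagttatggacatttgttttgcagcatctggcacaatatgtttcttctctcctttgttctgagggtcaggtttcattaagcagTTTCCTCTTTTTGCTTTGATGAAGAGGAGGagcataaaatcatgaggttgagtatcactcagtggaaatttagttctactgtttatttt
Klra3: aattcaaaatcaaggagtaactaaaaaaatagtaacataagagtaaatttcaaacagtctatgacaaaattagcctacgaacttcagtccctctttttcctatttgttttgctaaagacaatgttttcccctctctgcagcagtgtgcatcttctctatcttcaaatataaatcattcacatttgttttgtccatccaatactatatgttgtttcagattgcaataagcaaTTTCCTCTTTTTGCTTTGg
The shared run began 119 bases before the annotated start in Klra6, 89 in Klra7 and 19 in Klra3, and the longest run that Klra3 and Klra6 share was 51 bases. Where a gene had several annotated starts, the start with the longest run shared with Klra6 was shown, so the run lengths were selected for likeness. The likeness is a description of annotated starts, and no measurement here bears on which factor binds there.

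Other NK receptor and adaptor genes did not move as a block. Klrb1c (chr6:128778485-128789215), which encodes NK1.1, measured 51.3, 48.7 and 47.0 CPM in GFP+ against 15.4, 30.3 and 19.2 CPM in GFP- libraries, a log2 fold change of 1.14 ± 0.21 without KT13 and KT21 (adjusted p = 0.0159) and 1.18 ± 0.22 with them (adjusted p = 0.157). The groups did not overlap, although 16.1% of its terminal 75-base stretches occur in another annotated gene. Its neighbour Klrb1a measured 14.1, 18.4 and 17.997 CPM in GFP+ and 5.56, 7.61 and 6.06 CPM in GFP- and had an adjusted p of 0.0827. Fcer1g (chr1:171229572-171234365), a signaling adaptor with an activation motif that pairs with several NK receptors, was at 122, 143 and 112 CPM (GFP+) against 70.3, 75.2 and 68.2 CPM (GFP-). Its log2 fold change was 0.84 ± 0.17 (adjusted p = 0.0312), and all GFP+ libraries were higher. Other lectin receptors, chosen after their values were seen, lay the opposite way. Klrc1 (NKG2A) was at 516, 1047 and 811 CPM in GFP+ against 1205, 1338 and 1266 CPM in GFP- libraries, and Klrk1 (NKG2D) at 222, 313 and 256 CPM in GFP+ and 357, 412 and 323 CPM in GFP-. Both separated the groups downward without passing the test (adjusted p = 0.158 and 0.37 without KT13 and KT21), and Klrc1 shared 22.4% of its terminal stretches, mostly with Klrc2. In all, the NK and innate-like receptor list had 31 tested genes, of which 20 had positive and 11 negative fold changes. Klra6, Klra7, Klrb1c and Fcer1g were called. In this list 10 members separated upward (32.3%) and 5 downward (16.1%), against 6.19% and 6.63% of all genes tested. The called genes are among those separated upward, so the count does not test the list. The median log2 fold change was 0.31 against 0.0024 for all genes. Trdc, the constant segment of the T cell receptor delta chain, lay higher at 8.01, 10.1 and 7.37 CPM (GFP+) against 2.95, 3.50 and 3.25 CPM (GFP-), and its part in the Ly49 difference was not tested.

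Itga4 (chr2:79255426-79333123), the alpha 4 integrin chain that binds VCAM-1, measured 43.3, 56.6 and 62.5 CPM in GFP+ against 22.98, 33.3 and 28.7 CPM in GFP- libraries. It rose by 1.07 ± 0.16 on the log2 scale without KT13 and KT21 (adjusted p = 0.00246), and the lowest GFP+ library was above the highest GFP- library. Its partner chains Itgb1 and Itgb7 were not called, and Itga4 was the only called gene among 30 tested integrin and adhesion genes. Of these, 4 separated upward (13.3%) and 5 downward (16.7%), against 6.19% and 6.63% of all genes tested. Cxcr4 (chr1:128588199-128592293), the receptor for CXCL12, was at 151, 156 and 173 CPM in GFP+ and 95.6, 90.9 and 121 CPM in GFP-, a difference of 0.69 ± 0.15 (adjusted p = 0.038). The 21 other tested receptors for chemoattractants and egress signals included 1 called gene, P2ry14, which encodes a receptor for UDP-glucose and was lower at 8.01, 6.77 and 2.72 CPM (GFP+) against 13.2, 13.2 and 15.5 CPM (GFP-) (log2 fold change -1.55, adjusted p = 0.0473). Cxcr6, the receptor for CXCL16 carried by resident T cells, measured 166, 225 and 211 CPM in GFP+ against 248, 387 and 295 CPM in GFP- libraries. It was lower in every GFP+ library, with an adjusted p of 0.189. The list of 22 receptors had 1 member separated upward (4.55%) and 6 downward (27.3%), against 6.19% and 6.63% of all genes tested.

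Ikzf2 (chr1:69531214-69687245) encodes Helios, a zinc finger factor found in regulatory T cells and in subsets of CD8+ T cells. It measured 173, 126 and 154 CPM in GFP+ and 72.8, 81.5 and 73.5 CPM in GFP-, every GFP+ value being above every GFP- value. The log2 fold change was 0.99 ± 0.17 with all libraries (adjusted p = 0.141) and 0.88 ± 0.14 without KT13 and KT21 (adjusted p = 0.00472). Id2, a repressor of E proteins needed by effector cells, went down, with 582, 571 and 406 CPM (GFP+) against 759, 1181 and 665 CPM (GFP-) and a log2 fold change of -0.83 ± 0.18 (adjusted p = 0.044). Several alternatives without KT13 and KT21 did not call Id2. Among them were the fit without KT16 (log2 fold change -0.54, adjusted p = 0.155), non-treated libraries alone (adjusted p = 0.143) and DESeq2 (adjusted p = 0.181). Ikzf2 and Id2 were the called genes among 27 tested transcription factors of effector and exhausted cells. Runx2 lay lower in every GFP+ library at 24.7, 33.9 and 26.2 CPM in GFP+ against 41.1, 52.0 and 42.5 CPM in GFP- libraries. Its adjusted p was 0.178. In all, 1 member separated upward (3.70%) and 6 downward (22.2%), against 6.19% and 6.63% of all genes tested.

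Several higher genes belonged to none of the lists. Cd7 (chr11:121036747-121039418), an immunoglobulin-family receptor of T and NK cells, measured 544, 268 and 289 CPM in GFP+ and 165, 153 and 153 CPM in GFP-. The groups did not overlap, and KT13 was far above the other GFP+ libraries, so the log2 fold change was 1.23 ± 0.35 with all libraries (adjusted p = 0.561) and 0.83 ± 0.14 without KT13 and KT21 (adjusted p = 0.00525). Gas7 (chr11:67455437-67688990), an actin-associated protein, was at 27.9, 34.9 and 27.6 CPM (GFP+) against 13.6, 13.5 and 12.6 CPM (GFP-), with a log2 fold change of 1.24 ± 0.21 (adjusted p = 0.00856). No GFP- library of Gas7 exceeded 13.6 CPM, and no GFP+ library was under 27.6 CPM. Pabpc4, a poly(A)-binding protein, was at 211, 264 and 258 CPM in GFP+ against 166, 176 and 168 CPM in GFP- libraries (log2 fold change 0.62 ± 0.12, adjusted p = 0.025), and 46.0% of its terminal stretches occur in another annotated gene. Chn2, a GTPase-activating protein for Rac, was at 43.2, 31.8 and 47.5 CPM in GFP+ and 19.1, 24.3 and 16.7 CPM in GFP- (log2 fold change 0.99, adjusted p = 0.0357). Nsg2 was at 79.1, 84.7 and 107 CPM (GFP+) against 59.3, 60.03 and 57.9 CPM (GFP-) and Nrgn, a calmodulin-binding protein, at 177, 186 and 212 CPM in GFP+ against 126, 129 and 144 CPM in GFP- libraries, with log2 fold changes of 0.70 and 0.58 (adjusted p = 0.044 and 0.0473). In all of these genes the GFP+ and GFP- libraries did not overlap.

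In 3 of the called higher genes the groups overlapped once KT13 was included. Pdgfb (chr15:79995874-80014977), the B chain of platelet-derived growth factor, measured 2.67, 25.7 and 29.4 CPM in GFP+ and 3.97, 11.4 and 10.9 CPM in GFP-: KT15 and KT17 were above all GFP- libraries and KT13 was below them. Its log2 fold change was 1.65 ± 0.29 without KT13 and KT21 (adjusted p = 0.0102) and 1.14 ± 0.85 with them (adjusted p = 0.897). Snhg6, a host transcript of small nucleolar RNA, showed the same order at 3.92, 25.7 and 25.8 CPM (GFP+) against 5.67, 14.3 and 10.1 CPM (GFP-) (adjusted p = 0.0473 and 0.904). In the predicted non-coding gene Gm12504, at 64.6, 128 and 150.4 CPM in GFP+ against 59.2, 90.0 and 73.0 CPM in GFP- libraries, KT13 lay among the GFP- libraries (adjusted p = 0.0159 and 0.802). In each of these 3 genes the lowest GFP- library was KT14.

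Among the lower genes, Ly6a (chr15:74994877-74998031) had the smallest p. It encodes Sca-1, a lipid-anchored surface protein that interferon induces. It measured 206, 219 and 203 CPM in GFP+ and 444, 428 and 488 CPM in GFP-, with each group within a narrow range. The log2 fold change was -1.12 ± 0.17 with all libraries (adjusted p = 0.122) and -1.10 ± 0.14 without KT13 and KT21 (adjusted p = 0.000359). The other highly expressed Ly6 genes did not follow, since Ly6c2 was at 1327, 1298 and 1574 CPM (GFP+) against 1277, 1223 and 1549.6 CPM (GFP-) and Ly6e at 533, 573 and 537 CPM in GFP+ against 610.0, 532 and 619 CPM in GFP- libraries, both overlapping and both named here for their family after their values were seen. Ly6g5b, another member of the family, was at 21.99, 28.2 and 17.7 CPM in GFP+ and 53.7, 46.5 and 51.9 CPM in GFP- and fell by 1.14 on the log2 scale (adjusted p = 0.044). Of 13 tested Ly6 and IFITM genes, 4 were called lower. In this list 5 separated downward (38.5%) and 0 upward, against 6.63% and 6.19% of all genes tested. The median log2 fold change was -0.17 with all libraries and -0.54 without KT13 and KT21.

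The interferon-induced transmembrane genes lie together on chromosome 7, and the cluster was read from Psmd13 to Sigirr (chr7:140881968-141100572). Ifitm2 measured 41.9, 37.4 and 27.6 CPM (GFP+) against 79.3, 75.8 and 70.7 CPM (GFP-), a log2 fold change of -1.21 ± 0.17 without KT13 and KT21 (adjusted p = 0.000739) and -1.08 ± 0.28 with them (adjusted p = 0.454). Its terminal 75-base stretches occur elsewhere in 45.4% of cases, mostly in a predicted gene, so reads could be split. Ifitm1 measured 199, 466 and 249 CPM in GFP+ against 648, 964 and 866 CPM in GFP- libraries, with a log2 fold change of -1.21 ± 0.21 (adjusted p = 0.00976), and its reads are nearly unique at 0.979% shared. The highest GFP+ library of Ifitm1 was KT15, which was still below every GFP- library. Ifitm3 measured 83.7, 175 and 135 CPM in GFP+ and 213, 181 and 281 CPM in GFP- and did not pass the test (adjusted p = 0.181). The non-immune neighbour B4galnt4, a glycosyltransferase, was called lower at 2.49, 10.1 and 5.71 CPM (GFP+) against 16.7, 22.2 and 19.05 CPM (GFP-) (adjusted p = 0.044), whereas Psmd13, a proteasome subunit at the cluster's edge, overlapped at 125, 119 and 135 CPM in GFP+ against 117, 107 and 123 CPM in GFP- libraries. In all, 6 of the 10 tested genes of the stretch lay lower in every GFP+ library and 0 higher, against 6.63% and 6.19% of all genes tested. Psmd13, Gm15542, Pgghg and Ifitm5 overlapped. The called Ifitm1, Ifitm2 and B4galnt4 are among the 6. The bounds were set by hand around called genes, so the count does not test the cluster. Outside the stretch, the nearby genes Ric8a, Sirt3, Ptdss2 and Rnh1 overlapped. Gbp6, an interferon-induced GTPase, was called lower at 240.3, 169 and 211 CPM in GFP+ and 288, 284 and 283 CPM in GFP- (log2 fold change -0.59, adjusted p = 0.0345), with 86.2% of its terminal stretches shared with other genes.

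**Figure D2:**
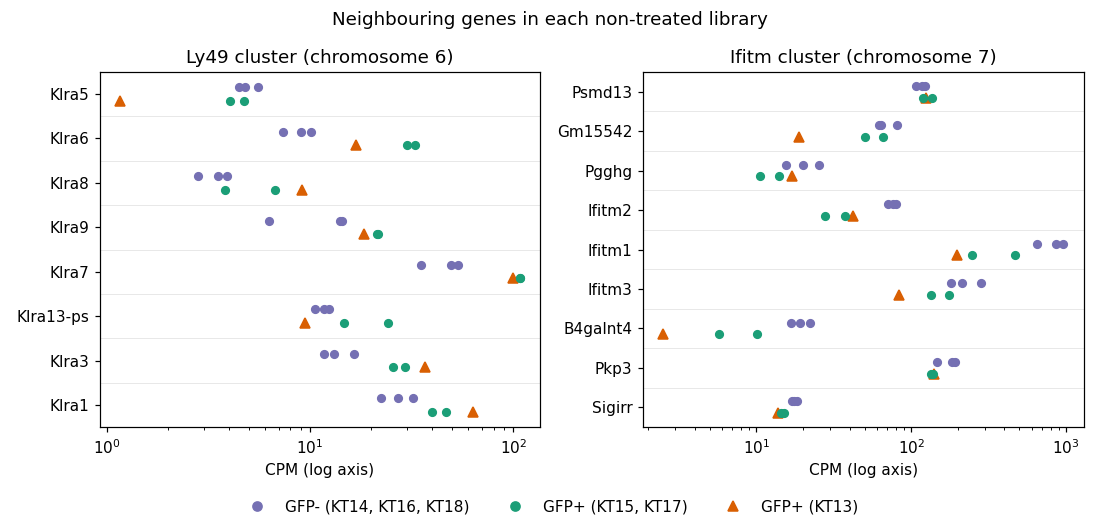
CPM on a log axis for the tested genes of the Ly49 and Ifitm clusters in chromosomal order, with 1 point for each GFP- library and each GFP+ library and a triangle for KT13 (genes with a 0 in any library are not drawn). Klra6, Klra9, Klra7, Klra3 and Klra1 sit higher in GFP+ while Klra5, Klra8 and Klra13-ps overlap, and the genes from Ifitm2 to Sigirr sit lower while Psmd13, Gm15542 and Pgghg overlap.

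Granzymes, the proteases that cytotoxic cells deliver to their targets, fell in part. Gzma (chr13:113093825-113100981) measured 66.6, 125 and 70.2 CPM (GFP+) against 269, 369 and 346 CPM (GFP-), so the highest GFP+ library was below the lowest GFP- library. Its log2 fold change was -1.91 ± 0.36 with all libraries (adjusted p = 0.157) and -1.75 ± 0.30 without KT13 and KT21 (adjusted p = 0.00856). Gzmc, on chromosome 14 beside Gzmb, measured 117, 74.8 and 73.5 CPM in GFP+ against 179, 134 and 127 CPM in GFP- libraries, a difference of -0.98 ± 0.17 (adjusted p = 0.00942). KT13 had the highest Gzmc value of the GFP+ libraries and lay just under the lowest GFP- library. The other genes of the chromosome 14 cluster, named for position, were not called. Gzmb lay lower in every GFP+ library, with a log2 fold change of -0.62 with all libraries. Without KT13 and KT21 it was -0.49 (adjusted p = 0.149). Gzmf measured 9.61, 4.18 and 10.96 CPM in GFP+ and 10.2, 11.5 and 9.13 CPM in GFP-. Gzmd, Gzme and Gzmg stayed at or below 4.45 CPM in every library. Gzmn overlapped, with a log2 fold change of 1.34 with all libraries. The list of granzymes and secretory lytic genes had 26 tested members, of which Gzma and Gzmc were called. Of the members, 8 separated downward (30.8%) and 0 upward, against 6.63% and 6.19% of all genes tested. The median log2 fold change was -0.11. Fasl, the ligand of the death receptor Fas, was lower in every GFP+ library at 39.3, 38.1 and 43.6 CPM (GFP+) against 57.0, 68.3 and 59.8 CPM (GFP-) and had an adjusted p of 0.098.

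The cluster's promoters are shown because cyclic AMP, the second messenger of A2AR, acts through the cyclic AMP response element (CRE), the letters TGACGTCA, the same on both strands. It was searched from 250 bases before to 50 bases after each annotated RefSeq start. Of the 50 called genes, 37 had a RefSeq entry. A gene was counted if any of its starts held the motif, and the other motifs below were searched alike. The CRE occurred in 1 of 27 lower genes, Gzmc, and in 0 of 10 higher genes. It was held by 3.67% of the 9742 tested genes with an entry and 2.03% of all 27025. The lines below give 60 bases around the same octamer on the minus strand of GRCm38.p6, 5′ to 3′ with the octamer in capitals, at chr14:56234682-56234741, chr14:56211457-56211516, chr14:56159624-56159683, chr14:56132622-56132681 and chr14:56120655-56120714.
Gzmc: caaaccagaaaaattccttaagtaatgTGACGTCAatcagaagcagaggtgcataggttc
Gzmf: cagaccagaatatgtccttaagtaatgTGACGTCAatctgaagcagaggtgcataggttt
Gzmg: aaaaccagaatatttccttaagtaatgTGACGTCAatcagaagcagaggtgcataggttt
Gzmd: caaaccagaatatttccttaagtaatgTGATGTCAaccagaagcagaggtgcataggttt
Gzme: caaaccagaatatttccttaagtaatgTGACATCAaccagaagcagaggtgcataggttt
The octamer lay 57 bases before the start in Gzmc, 82 in Gzmf and 77 in Gzmg. Gzmd differed from it by C4T and Gzme by G5A, counted from the octamer's 5′ end with the CRE base first. The 250 bases of Gzmb, the remaining gene of the cluster searched, did not hold the CRE. The called Gzmc and the uncalled Gzmf thus both held it, and the match describes letters, not binding. The other motifs searched, on both strands, were TTCNNNGAA, bound by STAT factors, with 2 of 10 higher genes (Klra7, Nsg2) and 1 of 27 lower (Fgl2) against 8.29% of tested genes, and GAAA followed by any 2 bases and GAAA, as in the interferon response element, with Nsg2 among the higher and Ifitm2 and Gzma among the lower against 3.99%. TGTGGT, bound by RUNX factors, occurred in 3 of 10 higher and 7 of 27 lower genes against 15.4%. These windows and counts are small, and no difference between the called genes and the others was tested.

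Both chains of the CD8 coreceptor were called lower without KT13 and KT21. Cd8b1 (chr6:71322788-71337494) measured 442, 416 and 378 CPM in GFP+ against 668, 615 and 645 CPM in GFP- libraries, a log2 fold change of -0.69 ± 0.13 (adjusted p = 0.0159). Its neighbour Cd8a (chr6:71373427-71379173) measured 831, 860.4 and 799 CPM in GFP+ and 1188, 1166 and 1089 CPM in GFP-, with -0.47 ± 0.10 (adjusted p = 0.038). Both separated the groups with KT13 included. The calls depended on the libraries in the fit without KT13 and KT21. Cd8a lost its call with non-treated libraries alone (adjusted p = 0.125), without KT14 (0.118) and without KT16 (0.103). Cd8b1 lost its call without KT14 (adjusted p = 0.0673). The ratio of Cd8b1 to Cd8a counts was 0.496 ± 0.0309 in GFP+ and 0.561 ± 0.0323 in GFP- libraries (SD, n = 3 each; exact permutation test, two-sided p = 0.2, where 0.1 is the smallest possible), so a shift of the ratio was not resolved. Lat, the membrane adaptor of T cell receptor signaling, was at 175, 145 and 155 CPM (GFP+) against 234, 212 and 226 CPM (GFP-) (log2 fold change -0.57, adjusted p = 0.0345). Of the receptor's own chains, named here after their values were seen, Cd3e at 242, 185 and 194 CPM in GFP+ against 171, 196 and 191 CPM in GFP- libraries and Trac at 912, 796 and 692 CPM in GFP+ and 825, 752 and 761 CPM in GFP- overlapped, and Cd3g lay lower in every GFP+ library with a log2 fold change of -0.23 over all 12 libraries. Of 38 tested genes of the T cell receptor and proximal signaling, Cd8a, Cd8b1 and Lat were called. In this list 9 separated downward (23.7%) and 0 upward, against 6.63% and 6.19% of all genes tested, and the median was -0.12. In sorted pools fewer cells of a type and less RNA per cell cannot be told apart.

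Adgrg1 and Adgrg3, called lower without KT13 and KT21, encode adhesion G protein-coupled receptors, which have long extracellular parts. Adgrg1 (GPR56) measured 91.1, 51.4 and 54.5 CPM (GFP+) against 100.4, 93.7 and 76.4 CPM (GFP-), with KT13 among the GFP- libraries, and Adgrg3 (GPR97) measured 4.72, 7.22 and 3.92 CPM in GFP+ against 13.4, 18.8 and 14.1 CPM in GFP- libraries and kept the groups apart with KT13. Without KT13 and KT21 the log2 fold changes were -0.77 ± 0.16 and -1.47 ± 0.33 (adjusted p = 0.038 and 0.0488). Both genes lie on chromosome 8 within 150 kb of each other. In all, 47 of the 50 called genes had a tested neighbour within that distance. A called neighbour was found for 10, all of them lower, including the pairs Lmna and Sema4a and Cd8a and Cd8b1. Each gene of such a pair is counted through the other. The share over all genes was not computed, so the count does not show clustering.

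Lmna (chr3:88480147-88509956), which encodes the nuclear lamins A and C, measured 69.1, 58.4 and 38.5 CPM in GFP+ and 116, 107 and 88.7 CPM in GFP-, a log2 fold change of -1.10 ± 0.18 without KT13 and KT21 (adjusted p = 0.00563) and -0.91 ± 0.21 with them (adjusted p = 0.316). The galectin genes Lgals1 and Lgals3, which encode secreted sugar-binding proteins that activated T cells make, were at 528, 391 and 338 CPM (GFP+) against 565, 552 and 522 CPM (GFP-) and at 194, 205 and 153 CPM in GFP+ against 311, 312 and 269 CPM in GFP- libraries, respectively. Lgals3 separated the groups with KT13 included, and Lgals1 overlapped through KT13. The log2 fold changes were -0.58 ± 0.11 (adjusted p = 0.0193) and -0.74 ± 0.15 (adjusted p = 0.0345). The S100 calcium-binding proteins lay the same way without passing the test, S100a4 at 607, 628 and 620.3 CPM in GFP+ and 887, 1008 and 988 CPM in GFP- (adjusted p = 0.0903) and S100a6 at 789, 763 and 623 CPM (GFP+) against 1091, 1109 and 859.9 CPM (GFP-) (adjusted p = 0.0666). Over 35 tested cytoskeleton and lamin genes, 3 were called (Lmna, Lgals1, Lgals3). Of the 35, 8 separated downward (22.9%) and 1 upward (2.86%), against 6.63% and 6.19% of all genes tested, and the median was -0.11.

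Further lower genes spanned metabolism, signaling and surface molecules. AA467197 (chr2:122636986-122641191), a small mitochondrial protein gene, measured 10.3, 9.62 and 13.3 CPM in GFP+ against 30.5, 34.3 and 27.9 CPM in GFP- libraries and had log2 fold changes of -1.48 ± 0.26 with all libraries (adjusted p = 0.141) and -1.43 ± 0.23 without KT13 and KT21 (adjusted p = 0.00525). Ppp2r2c, a regulatory subunit of protein phosphatase 2A, was at 0.712, 0.443 and 1.79 CPM in GFP+ and 6.81, 5.23 and 4.84 CPM in GFP-, a log2 fold change of -2.33 ± 0.46 (adjusted p = 0.025) at a low level. Glrx, a thiol oxidoreductase, was at 37.7, 38.0 and 48.5 CPM (GFP+) against 74.3, 86.5 and 69.9 CPM (GFP-) (adjusted p = 0.0345). These 3 genes kept the groups apart with KT13 included. Il10ra, the ligand-binding chain of the interleukin 10 receptor, was at 74.5, 44.8 and 52.6 CPM in GFP+ against 91.6, 84.9 and 68.1 CPM in GFP- libraries (adjusted p = 0.0345), with KT13 among the GFP- values. Cd86, best known as a ligand of CD28 on antigen-presenting cells, was at 30.7, 25.5 and 25.6 CPM in GFP+ and 39.8, 51.8 and 50.04 CPM in GFP- (adjusted p = 0.0473). F2r, the thrombin receptor PAR1, was at 56.0, 137 and 122 CPM (GFP+) against 184, 215 and 201 CPM (GFP-) (adjusted p = 0.038). In the last pair of genes every GFP+ library was below every GFP- library. Sema4a, a semaphorin, Fgl2, a fibrinogen-like protein, Emp3, Med10, Osgin1 and Rexo5 had log2 fold changes of -0.62, -0.69, -0.64, -0.64, -1.08 and -1.22 without KT13 and KT21. The predicted gene 5830411N06Rik was at 0.890, 3.36 and 0.996 CPM in GFP+ against 13.1, 9.90 and 11.8 CPM in GFP- libraries (adjusted p = 0.0312). Its neighbour on chromosome 7, Cd163l1, a scavenger receptor gene, was at 1.34, 2.22 and 1.99 CPM in GFP+ and 8.51, 7.56 and 5.88 CPM in GFP- and had an adjusted p of 0.0949.

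Of the genes whose 3 GFP+ libraries did not overlap the 3 GFP- libraries, the 12 with the smallest p in each direction included others that were not called. Higher were Klra3, given above, Atp1b1, a subunit of the sodium-potassium pump, at 67.2, 52.4 and 45.1 CPM (GFP+) against 28.4, 19.8 and 29.3 CPM (GFP-), Klhdc2, a substrate receptor of a ubiquitin ligase, at 121, 93.2 and 94.96 CPM in GFP+ against 61.7, 62.5 and 62.8 CPM in GFP- libraries, and Myo6, a myosin that moves toward the minus end of actin, at 52.5, 37.7 and 39.4 CPM in GFP+ and 18.7, 21.3 and 25.7 CPM in GFP-. Their adjusted p without KT13 and KT21 were 0.0549, 0.0549 and 0.098, and in each KT13 was the highest library. Lower were Cd163l1, Pfn2, a profilin, at 0.178, 0.570 and 0.266 CPM (GFP+) against 2.95, 2.38 and 2.33 CPM (GFP-), the agouti gene a at 4.36, 4.62 and 4.58 CPM in GFP+ against 10.8, 8.68 and 9.74 CPM in GFP- libraries and Serpinb6a, a protease inhibitor, at 15.9, 20.6 and 22.4 CPM in GFP+ and 42.7, 29.1 and 34.8 CPM in GFP-. These had adjusted p of 0.0949, 0.198, 0.154 and 0.098. A further 175 separated genes upward and 162 downward were predicted genes, pseudogenes or unnamed transcripts, such as 3110009E18Rik and 1700019D03Rik.

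The other lists of pathway and state genes held no or few called members, and their counts are read against the separation of 6.19% upward and 6.63% downward over all genes. Receptors for cytokines (28 tested) had 1 member upward and 5 downward, with Il10ra called. Il7r, the interleukin 7 receptor chain of memory and stem-like cells, was at 48.9, 47.6 and 50.3 CPM (GFP+) against 70.6, 75.6 and 73.3 CPM (GFP-) (adjusted p = 0.0567), and the low Il6ra was at 1.34, 2.47 and 4.58 CPM in GFP+ against 9.93, 8.32 and 12.4 CPM in GFP- libraries (adjusted p = 0.128). Il6st, the shared chain of the interleukin 6 family, lay higher at 34.7, 33.6 and 22.8 CPM in GFP+ and 16.0, 17.2 and 17.5 CPM in GFP- (adjusted p = 0.157). Among 14 inhibitors of cytokine signaling, 2 separated downward and 0 upward. These were Socs2, at 22.7, 25.5 and 25.5 CPM (GFP+) against 36.1, 37.2 and 49.5 CPM (GFP-) (adjusted p = 0.105), and Cish, at 273, 326 and 263 CPM in GFP+ against 419, 466 and 411 CPM in GFP- libraries (adjusted p = 0.0707), and none was called. Costimulatory receptors (17 tested) had 1 upward and 3 downward, with Icos at 98.4, 123 and 113 CPM in GFP+ and 181, 186 and 172 CPM in GFP- (adjusted p = 0.0596), and inhibitory checkpoint receptors (21 tested) had 0 upward and 4 downward with none called.

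Of 23 stem-like and memory genes, 4 separated upward and 3 downward and none was called. Dapl1 was lower at 17.4, 35.4 and 41.6 CPM (GFP+) against 56.8, 50.8 and 81.3 CPM (GFP-) and Myb, a factor of stem-like cells, higher at 13.97, 17.5 and 14.5 CPM in GFP+ against 9.13, 7.003 and 9.25 CPM in GFP- libraries (adjusted p = 0.128 and 0.204). Genes of tissue residence (19 tested) had 0 upward and 5 downward, with a median log2 fold change of -0.25 with all libraries and -0.16 without KT13 and KT21. Immediate early and AP-1, EGR and NR4A factors (30 tested) had 2 upward and 7 downward. Egr2, induced by receptor signaling, was at 27.0, 23.3 and 27.0 CPM in GFP+ and 19.005, 14.7 and 18.1 CPM in GFP- and Atf3 at 29.1, 27.5 and 41.4 CPM (GFP+) against 46.8, 42.4 and 54.6 CPM (GFP-), and neither passed the test (adjusted p = 0.37 and 0.409). Innate-like and regulatory CD8 features (16 tested) had 1 upward and 1 downward, the former being Ikzf2. Chemokines (9 tested) had 1 each way, Ccl5 higher at 923, 766 and 689 CPM in GFP+ against 576, 668 and 426 CPM in GFP- libraries and Ccl1 lower at 44.9, 52.6 and 69.7 CPM in GFP+ and 103, 108 and 75.8 CPM in GFP- (adjusted p = 0.446 and 0.189). Effector cytokines (15 tested) had 0 upward and 2 downward, with a median of 0.03 with all libraries and -0.33 without KT13 and KT21.

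Genes of the cyclic AMP pathway, downstream of A2AR, gave no call among 23 tested, with 0 upward and 3 downward. The phosphodiesterase gene Pde4d, whose product degrades cyclic AMP, was at 11.2, 11.7 and 17.1 CPM (GFP+) against 19.6, 18.6 and 19.3 CPM (GFP-) (adjusted p = 0.628), and the list's median was 0.05. Glycolysis, hypoxia and nutrient uptake (31 tested) had 0 upward and 4 downward, among them the mitophagy receptor Bnip3 at 17.4, 14.1 and 12.6 CPM in GFP+ against 25.7, 25.9 and 23.3 CPM in GFP- libraries and the glucose transporter Slc2a3 at 16.6, 15.3 and 18.9 CPM in GFP+ and 28.4, 29.8 and 26.6 CPM in GFP- (adjusted p = 0.098 and 0.206). Cell survival and death genes (29 tested) had 3 upward and 7 downward, and genes of MHC class I presentation (22 tested) 0 upward and 4 downward. TGF-beta pathway genes (20 tested) had 1 upward and 2 downward, cell cycle genes (50) 2 and 4, respiratory chain genes (56) 2 and 3, sterol genes (21) 1 and 1, and heat shock and chaperone genes (24) 0 and 0. None of these lists held a called gene. Cytosolic ribosomal protein genes (75 tested) had 64 positive and 11 negative fold changes, a median of 0.19 with all libraries and 0.10 without KT13 and KT21, and 5 upward separations with no call. These genes took 16.2% of counts in GFP+ and 14.7% in GFP- libraries on average (exact permutation test, two-sided p = 0.2, n = 3 each).

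**Figure D3:**
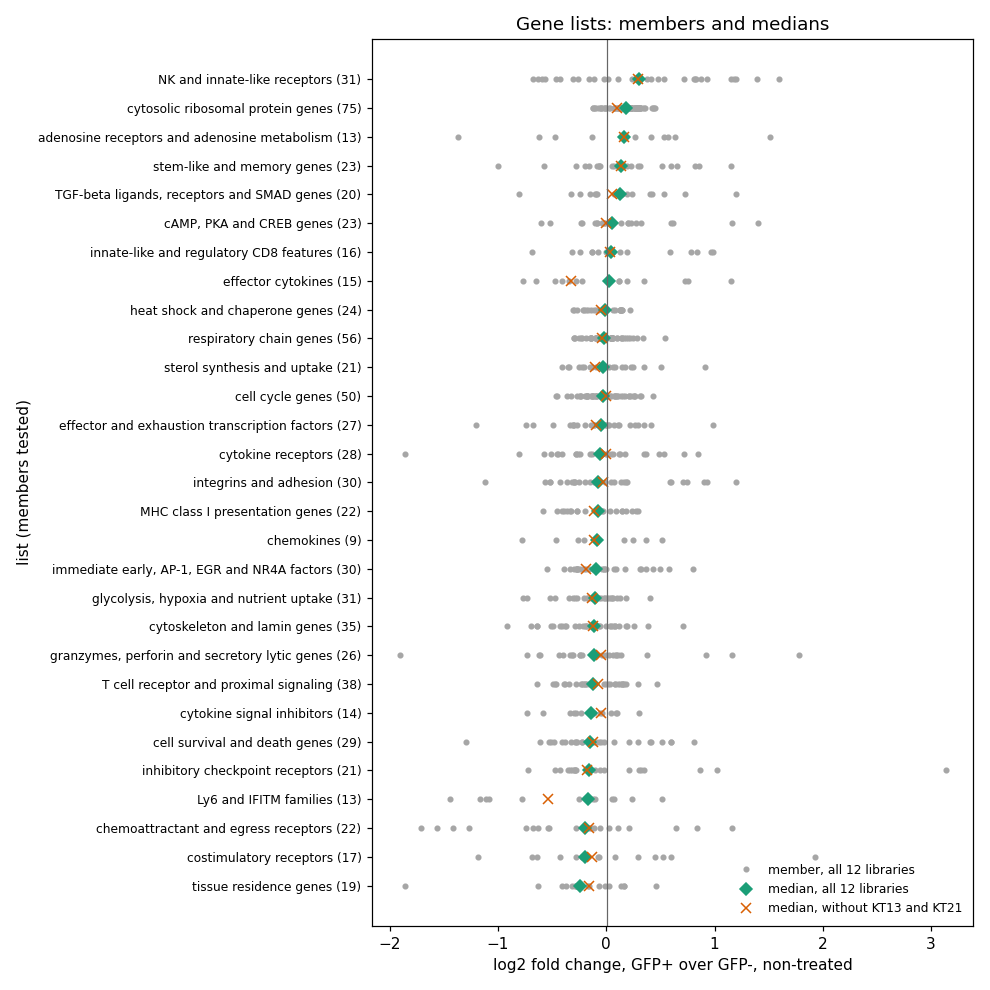
Each grey point is 1 tested member of a gene list, placed by its non-treated log2 fold change of GFP+ over GFP- in the fit of all 12 libraries, with the list median as a diamond and the median without KT13 and KT21 as a cross. Medians lie near 0, from 0.31 for the NK and innate-like receptors to -0.25 for the tissue residence genes, and the Ly6 and IFITM median moves from -0.17 to -0.54 without KT13 and KT21.

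The same contrast in tumors treated with anti-PD-L1, from libraries that did not enter the non-treated values, gave a separate look at the 50 genes. In the fit without KT13 and KT21, 49 of 50 had the same sign in the treated GFP+ and GFP- libraries, against 56.1% of all 14747 genes. The same sign together with an unadjusted p under 0.05 was found for 40 of 50, against 4.14% of all genes, and 14 of the 50 were called there too. The treated libraries also entered the estimate of the spread on which the 50 genes were called, so these counts are not independent of the calling. With non-treated libraries alone in the fit, 24 of the 50 were called. All 17 higher genes and 32 of 33 lower genes kept their sign. Sizes were smaller, with a median absolute log2 fold change of 0.60 in treated and 0.95 in non-treated libraries, and the non-treated sizes are those on which the genes were chosen. The exception in sign was Rexo5, at -1.22 in non-treated and 0.02 in treated cells.

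The log2 fold changes of the NK receptor genes were at least as large in treated as in non-treated cells. Klra6 measured 21.6, 14.2 and 19.2 CPM in the treated GFP+ libraries KT19, KT21 and KT23 against 6.004, 5.42 and 3.32 CPM in the GFP- libraries KT20, KT22 and KT24, and Klra7 96.7, 74.9 and 89.5 CPM against 34.9, 37.5 and 23.1 CPM. Their treated log2 fold changes were 2.05 and 1.55 (adjusted p = 0.00017 and 0.000166). Klrb1c and Fcer1g were called as well, at 1.28 and 0.996 (adjusted p = 0.00764 and 0.00771). So were Adora3 at -1.45, Ifitm2 at -1.42, Ifitm1 at -1.20, Gzma at -2.03 and Ikzf2 at 0.88. For Gzma the treated libraries held 170.4, 294 and 261 CPM in GFP+ and 404, 1055 and 1174 CPM in GFP-. Ly6a, at -0.59, was not called in treated cells (adjusted p = 0.0915), nor were Gas7 at 0.53 and Cd8a at -0.13.

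Whether the GFP difference changed with treatment was tested as an interaction. No gene passed after adjustment, in either fit, by edgeR's quasi-likelihood test, with 295 genes at an unadjusted p under 0.05 in the fit of 12 libraries and 632 in the fit of 10. Of the 50 genes, 11 had an unadjusted interaction p under 0.05, 2 higher and 9 lower, among them Ly6a (0.0117), Gas7 (0.032), Cd8a (0.0213) and Rexo5 (0.0016). The genes were chosen for their size in non-treated cells, and none of these differences held after adjustment over all genes.

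**Figure D4:**
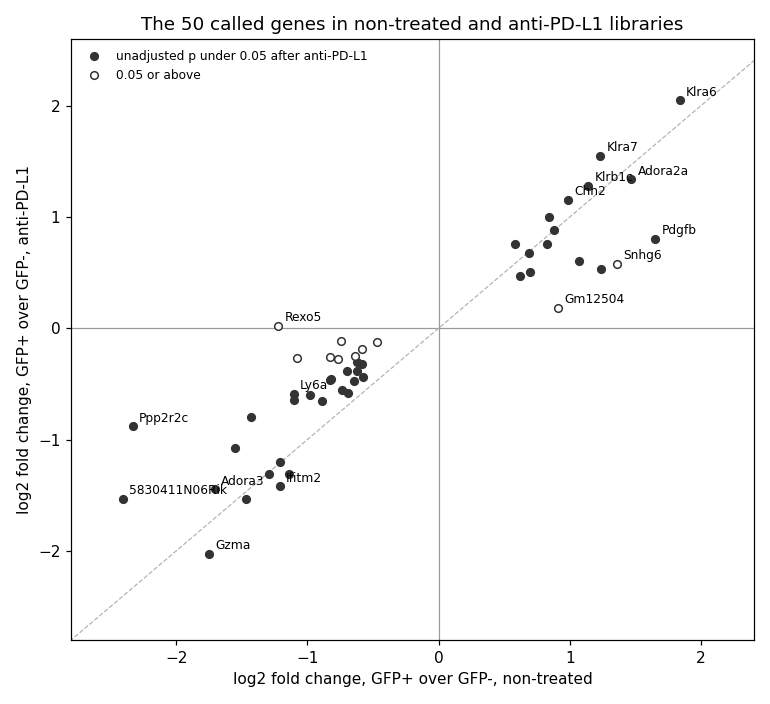
Each point is 1 of the 50 genes called without KT13 and KT21, with its non-treated log2 fold change of GFP+ over GFP- on the horizontal axis and that of the anti-PD-L1 libraries on the vertical axis; filled points have an unadjusted p under 0.05 in the latter, and the dashed line marks equal values. Every point but Rexo5 has the same sign on both axes, and many of the lower genes lie nearer to 0 on the vertical axis.

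The sorted populations carried the markers of CD8+ T cells in every library, with Cd8a from 799 to 1188 CPM and Cd4 at 0 to 0.919 CPM. The summed CD8 T cell markers ranged from 3252 to 3975 CPM in GFP+ and 3884 to 4142 CPM in GFP- libraries, which overlapped only through KT13. Markers of macrophages and monocytes summed to 376 to 472 and 363 to 447 CPM, dendritic cell markers to 299.9 to 399 and 234 to 308 CPM, and CD4 and regulatory T cell markers to 204 to 257 and 255 to 335 CPM, all overlapping. The NK cell list, which holds Gzma, summed to 397 to 516 and 526 to 679 CPM, lower in GFP+. Its defining receptor gene Ncr1 was at 3.29, 6.65 and 5.58 CPM (GFP+) against 5.84, 3.65 and 3.67 CPM (GFP-), overlapping between the groups, while 4 of its 10 tested members, Klrb1c, Fcer1g and Klra4 among them, separated upward. Gamma delta T cell markers summed to 171 to 321 and 217 to 314 CPM, with 1 of 4 tested members, Trdc, separating upward and Trdv4 at 0.

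The B and plasma cell list was higher in GFP+, 146 to 173 against 101 to 112 CPM, nearly all of it Ighm at 168, 139 and 156 CPM in GFP+ against 106, 96.2 and 106 CPM in GFP- libraries, while Cd79a did not exceed 0.184 CPM. Neutrophil and mast cell markers summed to at most 3.37 CPM, with Csf3r and Cpa3 at 0. AT3 tumor cell markers summed to 246 to 327 and 246 to 359 CPM, fibroblast and endothelial markers to 40.4 to 91.5 and 22.3 to 62.1 CPM with Cdh5 at 0, and erythroid markers to 257 to 553 and 266 to 579 CPM. All 7 tested fibroblast and endothelial markers had positive fold changes, with a median log2 fold change of 0.83 with all libraries and 1.04 without KT13 and KT21, although 0 were called and the summed values overlapped (exact permutation test, two-sided p = 0.3, n = 3 each). The part of these other cell types in the differences above was not tested.

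**Figure D5:**
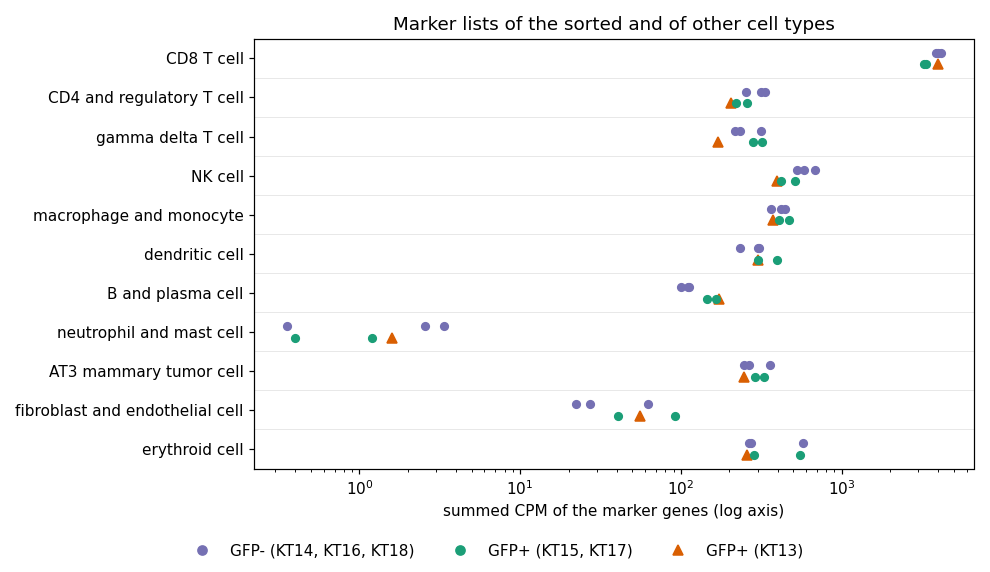
Summed CPM of each marker list on a log axis, with 1 point for each of the 3 GFP- and 3 GFP+ libraries and a triangle for KT13. CD8 T cell markers hold 3252 to 3975 CPM in GFP+ libraries, and the NK and the B and plasma cell lists are the ones whose groups do not overlap.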

How the data were processed

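Tumor-infiltrating CD8+ T cells, separated by GFP, were measured by QuantSeq 3′ end RNA sequencing in 12 libraries, 3 per combination of GFP and treatment, grouped by their titles. The deposited table holds raw read counts for 52636 Ensembl genes, which the authors made by trimming (cutadapt), alignment to mm10 (HISAT2) and featureCounts. The submitters' processing notes list cutadapt 1.7 and Subread 1.6.4, whereas the methods name other versions. Whether strand was used, and what was done with multi-mapping reads, is not given in the sources used here, so genes with near-identical ends and overlapping genes are uncertain. Symbols came from GENCODE vM21 (52489 matched). There were 0 unused columns, and EGFP reads were not analysed here. Totals ranged from 11292699 upward, without molecular identifiers, so precision rests on the spread between libraries. No pair of libraries within a group agreed within sampling noise.

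Counts were TMM-normalized and tested with edgeR 4.0.16 (filterByExpr, quasi-likelihood F test, R 4.3.3) in 1 model of 4 groups without covariates, once with all 12 libraries and once with the 10 without KT13 and KT21. GFP+ was contrasted with GFP- in each treatment, and the interaction was tested. P-values were Benjamini-Hochberg adjusted over all genes tested and called under 0.05. The fitting steps were tested on simulated data in which no library stood apart, so that test does not bear on the effect of KT13 and KT21. Single values per library were compared by exact permutation, two-sided, which with 3 against 3 cannot go below 0.1. The text names all called genes except 1 that is not reported here, the 12 per direction with the smallest p among genes whose libraries did not overlap in the 12-library set, and per list the called members and at most 3 others with the smallest p. Further genes are named for position or family. The members and the 29 lists of biology and 11 marker lists were chosen with earlier results of these data known. Alternatives were DESeq2 1.42.0, RLE normalization, a minimum of 10 counts in every library, no filter, non-treated libraries only, limma 3.58.1 voom with quality weights, leaving out each library and, added after the data were seen, a block of assumed pairs. Upstream sequences came from RefSeq (GRCm38.p6), and shared 75-base stretches were counted between GENCODE vM21 transcript ends of 600 bases.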

Additional observations from a re-analysis of the deposited data

How the results depend on the processing

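The labels do not state which GFP+ and GFP- libraries came from the same mice. As an assumption made after seeing the data, each GFP+ library was paired with the GFP- library of the next code and the pairs were fitted as a replicate block. This called 1 higher and 2 lower genes with all 12 libraries (Adora2a, Gzma and Ifitm1), and 58 and 88 without KT13 and KT21, with all 50 genes among them, although KT14 and KT22 then have no partner. The deviations from the group means correlated at 0.103, 0.0398 and 0.0944 within the 3 non-treated pairs and at -0.103 to 0.0403 between other non-treated GFP+ and GFP- libraries. Within the treated pairs they correlated at 0.0462, 0.108 and 0.163, against -0.174 to 0.0743 between the others. KT15 was almost equal with KT16, its assumed partner, and KT18 (0.0398 and 0.0403). KT19 correlated better with KT24 (0.0728) than with its partner KT20 (0.0462). The pairing is therefore not established. The 50 genes called without KT13 and KT21 kept their sign wherever they were tested in every alternative, which share most of their libraries, but the number of calls depended on the tool, the filter and the libraries. With all 12 libraries, where 1 gene was higher and 0 lower, DESeq2 called 26 higher and 27 lower, no filter beyond 1 count 48 and 30, and voom with library quality weights 7 and 5. RLE normalization, a minimum of 10 counts and non-treated libraries alone each called Adora2a only. Leaving out 1 non-treated library called 0 to 2 higher and 0 to 1 lower genes, the most without KT13, and Adora2a lost its call without each of KT14, KT15, KT16, KT17 and KT18 (adjusted p = 0.429, 0.0755, 0.0998, 0.112 and 0.321). Leaving out KT21 alone called 3 and 3. Without KT13 and KT21, where 17 were higher and 33 lower, DESeq2 called 47 and 84, RLE normalization 18 and 33, a minimum of 10 counts 26 and 37, no filter 92 and 96, non-treated libraries alone 13 and 15, and voom with weights 21 and 23. Leaving out a further library called 9 to 21 higher and 8 to 22 lower genes, and leaving out KT13 but keeping KT21 called 2 and 1. Of the 50 genes, DESeq2 kept 49, non-treated libraries alone 24, and the fits without KT14, KT15, KT16, KT17 and KT18 kept 16, 26, 28, 13 and 29. Adora2a, Klra6 and Adora3 were called in every alternative of that set. The cause of these shifts was not tested.

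Uncalled genes near 0 changed sign. With all 12 libraries and 1 left out, Tgfb1 ran from -0.029 to 1.01 and Adora2b from -0.017 to 1.87 (log2 fold change), both negative without KT13. Without KT13 and KT21 and 1 more left out, Sh2b3 ran from -0.29 to 0.16, Fdps from -0.11 to 0.28, Ly6c1 from -0.039 to 0.21, Tgfb1 from -0.10 to 0.041, Hsp90ab1 from -0.043 to 0.22 and Adora2b from -1.19 to 1.22, voom with weights gave 0.039 for Sh2b3 and 0.36 for Adora2b, and the assumed pairs gave 0.17 for Sh2b3 and 0.027 for Tgfb1. Depth limits Adora2b, which had at most 1.69 CPM in a non-treated library.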
